A study of Homo sapiens with 8 samples.

Results

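The 40 genes described here belong to the hypoxia-inducible factor (HIF) system and to glycolysis, and they were chosen by name on measured values, namely the fold changes of Molm13 cells with PRMT9 knockdown. They are 40 of the 57992 genes in the Molm13 count table, and each was also found by its identifier in the THP1 table of 58174 genes. They were divided into 8 HIF subunits and oxygen sensors, 8 HIF target genes outside metabolism, 4 collagen hydroxylases and 20 genes of glucose uptake and glycolysis. Because the Molm13 contrast was in view when the genes were chosen, their Molm13 differences are given as a description, without a test. The tests reported are those in THP1 cells, whose earlier results were also known, and those of the control level of the genes in each line.

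Molm13 and THP1 are human acute myeloid leukemia (AML) lines of monocytic type, and polyA RNA was sequenced in bulk after doxycycline (Dox) had induced either the control shRNA (shCtrl) or one that targets PRMT9 (shPRMT9). The 4 groups, which were Molm13 shCtrl, Molm13 shPRMT9, THP1 shCtrl and THP1 shPRMT9, held 2 libraries each, all labelled WT and all Dox induced. The letters OCI appear in the library names of the THP1 groups, although every other label gives THP1. The labels do not say whether the libraries of a group came from separate cultures, and numbers 1 and 2 of shPRMT9 could also stand for hairpins, so that each p value measures only the spread between these libraries.

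HIF is a pair of proteins, an oxygen-regulated alpha subunit (HIF1A or EPAS1) and the stable partner ARNT. In oxygen, the prolyl hydroxylases EGLN1, EGLN2 and EGLN3 mark the alpha subunit for VHL, which directs its destruction, while HIF1AN hydroxylates it so that it recruits coactivators poorly. This control acts on protein, and RNA levels of the subunits do not report HIF activity. When oxygen is low, HIF binds a short motif near its targets, which include genes of angiogenesis, mitophagy and collagen hydroxylation and most steps from glucose uptake to lactate.

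The promoters of the members were searched for the core letters of this motif, ACGTG or GCGTG on either strand, in RefSeq windows on GRCh38.p14 that run from 250 bases before to 50 bases after a start. A window was given for 35 of the 40 members, and not for BNIP3L, NDRG1, SLC2A3, VEGFA and VHL. At least 1 match lay in a window of 31 of the 35 genes (88.6%), compared with 69.1% of the 10765 genes with a window that were tested in either line. Since genes with several windows have more chances to match, genes with a single window were also compared, and 19 of 23 members (82.6%) and 63.6% of 7677 tested genes held a match. All 19 glycolysis genes with a window and all 5 such HIF target genes held at least 1, as did 3 of 4 collagen hydroxylases and 4 of 7 subunits and sensors. The glycolysis genes had 37 windows, of which 70.3% held a match, against 59.6% of the 15696 windows of tested genes. The palindrome CACGTG, which is also the E-box bound by other factors and which counts as 2 overlapping matches, was found for 25.7% of the members and 12.4% of the tested genes. Among genes with a single window these shares were 17.4% and 10.3%. These matches describe letters and not binding, which was not measured.

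The bases before the start are shown for 5 members, chosen after their values were seen because the results below turn on them. Bases that fall in an exon of GENCODE release 29 were left out. Capitals mark the matches, with ACGTG and GCGTG on the strand of the gene and CACGT and CACGC where the match lies on the other strand. DDIT4 (chr10:72273674-72273919, + strand) had 3 matches in the stretch shown. BNIP3 (chr10:131982014-131982173, - strand) had 6, and HK2, at the later of its 2 annotated starts (chr2:74834920-74835169, + strand), also had 6. PLOD2 (chr3:146161185-146161434, - strand) had 3, whereas EGLN3 (chr14:33951082-33951324, - strand) had 0 in the whole window.
DDIT4: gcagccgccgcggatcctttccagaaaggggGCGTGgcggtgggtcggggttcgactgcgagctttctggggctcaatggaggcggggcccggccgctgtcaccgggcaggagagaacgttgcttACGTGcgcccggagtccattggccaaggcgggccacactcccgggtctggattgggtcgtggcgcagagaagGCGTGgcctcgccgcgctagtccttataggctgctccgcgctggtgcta
BNIP3: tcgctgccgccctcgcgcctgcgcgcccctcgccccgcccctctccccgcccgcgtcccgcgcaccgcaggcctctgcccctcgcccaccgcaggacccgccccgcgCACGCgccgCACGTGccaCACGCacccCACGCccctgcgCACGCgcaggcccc
HK2: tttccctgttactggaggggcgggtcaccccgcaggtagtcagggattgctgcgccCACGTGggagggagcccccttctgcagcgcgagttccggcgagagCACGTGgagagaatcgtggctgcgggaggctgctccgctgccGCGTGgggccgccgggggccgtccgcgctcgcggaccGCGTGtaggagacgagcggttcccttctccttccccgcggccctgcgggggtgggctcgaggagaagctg
PLOD2: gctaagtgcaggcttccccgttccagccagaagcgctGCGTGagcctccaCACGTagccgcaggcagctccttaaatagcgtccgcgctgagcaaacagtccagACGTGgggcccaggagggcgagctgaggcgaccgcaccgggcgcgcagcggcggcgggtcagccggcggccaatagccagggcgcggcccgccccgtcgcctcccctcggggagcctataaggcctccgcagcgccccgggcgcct
EGLN3: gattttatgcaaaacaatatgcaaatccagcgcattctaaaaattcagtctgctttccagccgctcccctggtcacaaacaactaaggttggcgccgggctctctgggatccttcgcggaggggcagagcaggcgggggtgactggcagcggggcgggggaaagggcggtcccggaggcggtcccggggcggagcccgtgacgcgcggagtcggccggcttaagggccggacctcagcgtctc

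Library totals ranged from 18720950 to 27356870 counts on genes. PRMT9 was lower in both shPRMT9 libraries of each line, with a log2 fold change of -2.68 (SE 0.14) in Molm13 and -2.29 (SE 0.13) in THP1. The biological coefficient of variation (0.0201 in Molm13, 0.0247 in THP1) was low, and small differences passed the test in well counted genes. None of 10 myeloid markers was at 0 in any library, and their summed level moved with the knockdown, from 1341 and 1365 to 2014 and 2014 counts scaled to library size (CPM) in Molm13 and from 2754 and 2733 to 4131 and 3992 CPM in THP1. LYZ was the largest part of this sum, at 631 and 642 CPM in shCtrl and 987 and 1007 CPM in shPRMT9 libraries of Molm13 and at 1888 and 1896 against 3135 and 2994 CPM in THP1. Not all markers were higher, since MPO (log2 fold changes -0.56 in Molm13 and -0.82 in THP1), FCGR1A in Molm13 (-0.44) and CEBPA in THP1 (-0.12) were lower. Of the other marker lists, the T cell and erythroid sums were at most 0.273 CPM. The B cell sum was 39.4 to 43.1 CPM in Molm13, nearly all from PAX5, and in THP1 it was at most 4.68 CPM in shCtrl and at least 12.5 CPM in shPRMT9 libraries, with MS4A1 at 0 in 6 of the 8 libraries. The fibroblast and endothelial sum was 158 to 276 CPM in Molm13 and 378 to 824 CPM in THP1, was higher with knockdown and was mostly PECAM1. The part of these shifts in the results below was not tested, and in bulk RNA fewer cells of a type cannot be told apart from less RNA per cell.

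In control cells, the mean levels of the members ranged from 0.00591 (P4HA2 in Molm13) to 891 (GAPDH in Molm13) CPM per kilobase of exon (RPKM). They are given as the mean ± SD of the 2 control libraries. The lower glycolytic enzymes were highest in both lines. GAPDH, which oxidizes glyceraldehyde phosphate, was at 891 ± 18.8 RPKM in Molm13 and 506 ± 11.5 RPKM in THP1, and the enolase ENO1 was at 452 ± 5.34 and 490 ± 5.53 RPKM. Reads of GAPDH, and to a lesser degree of other abundant enzymes, can be split with processed pseudogenes, so these levels are uncertain.

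Most members differed between the control cells of the lines. Of the 40 members, 15 were higher and 22 were lower in THP1 than in Molm13 (FDR below 0.05 in the fit of all 8 libraries), while EGLN3, LDHA and ENO2 did not pass. Over all 19288 genes tested, 40.1% were higher and 42.7% lower, so that a difference between the lines was common, and the lines cannot be told apart from the separately deposited tables. P4HA2, PLOD2 and ADM, which are among the calls, had a few counts per library in 1 line and entered the fit through the other. Of the 37 calls, 34 held under each alternative run, and those of VHL, PFKFB4 and PKM did not. Without Molm13 shCtrl replicate 1, for example, the difference of VHL went from -0.12 to -0.02 on the log2 scale (FDR = 0.739), and without THP1 shCtrl replicate 2 that of PKM went from -0.07 to -0.02 (FDR = 0.513).

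Among the largest control differences were those of SLC2A3, P4HA2, ADM and PLOD2. The glucose transporter SLC2A3 had 3182 and 3058 counts in Molm13 controls and 24 and 18 counts in THP1 controls, which was 197-fold lower in THP1 (log2 difference -7.62, SE 0.09, FDR = 9.29e-85). Its relative SLC2A1, the widespread glucose transporter, went the other way and was 4.62-fold higher in THP1 (log2 difference 2.21, SE 0.04). Thus SLC2A3 made up 75.9% and 74.7% of the summed RPKM of the transporters in Molm13 controls and 0.383% and 0.282% in THP1 controls. SLC2A3 shares near-identical sequence with SLC2A14, so that its counts are uncertain.

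Reads of 2 collagen hydroxylases were nearly all from THP1. PLOD2, a lysyl hydroxylase, had 222 and 255 counts in THP1 controls and 0 and 3 counts in Molm13 controls, and the prolyl hydroxylase subunit P4HA2 had 256 and 230 against 1 and 1 counts. The ratios, corrected for library size, were 120 (95% counting interval 40.9 to 586) and 184 (50.7 to 1523), and these intervals cover counting error only. PLOD1 was also 2.65-fold higher in THP1, whereas P4HA1 was 1.92-fold lower. SLC22A4 overlaps P4HA2 on the other strand and had 143 and 158 counts in Molm13 controls and 261 and 281 in THP1 controls.

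HIF target genes were mostly lower in THP1. Of the 8, only NDRG1 was higher there (1.62-fold, FDR = 2.76e-25), and the other 7 were lower. Over all genes tested in this contrast, 40.1% were higher and 42.7% lower at FDR below 0.05. DDIT4, an inhibitor of mTORC1 signalling, was at 181 ± 1.14 RPKM in Molm13 and 10.8 ± 0.852 RPKM in THP1, a 16.8-fold difference. VEGFA, the angiogenic growth factor, was 6.71-fold lower in THP1, and the peptide hormone gene ADM had 362 and 294 counts in Molm13 but only 4 and 2 in THP1. Among the subunits, EPAS1 was 8.95-fold lower in THP1 (1.05 ± 0.0456 against 9.40 ± 0.0881 RPKM), while HIF1A was 1.26-fold higher (22.2 ± 0.724 against 17.6 ± 0.129 RPKM). Of the 20 glycolysis genes, 9 were higher and 9 lower in THP1 at FDR below 0.05, and 2 did not pass. These counts are close to the shares of all genes tested, 40.1% higher and 42.7% lower. All members from ALDOA through LDHA other than GAPDH, ALDOC and ENO2 were within 1.09-fold between the controls of the lines. The mutase PGAM1, which is not a member and is described at the end, was at 44.4 and 46.4 CPM in Molm13 and 500 and 502 CPM in THP1 controls.

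**Figure D1:**
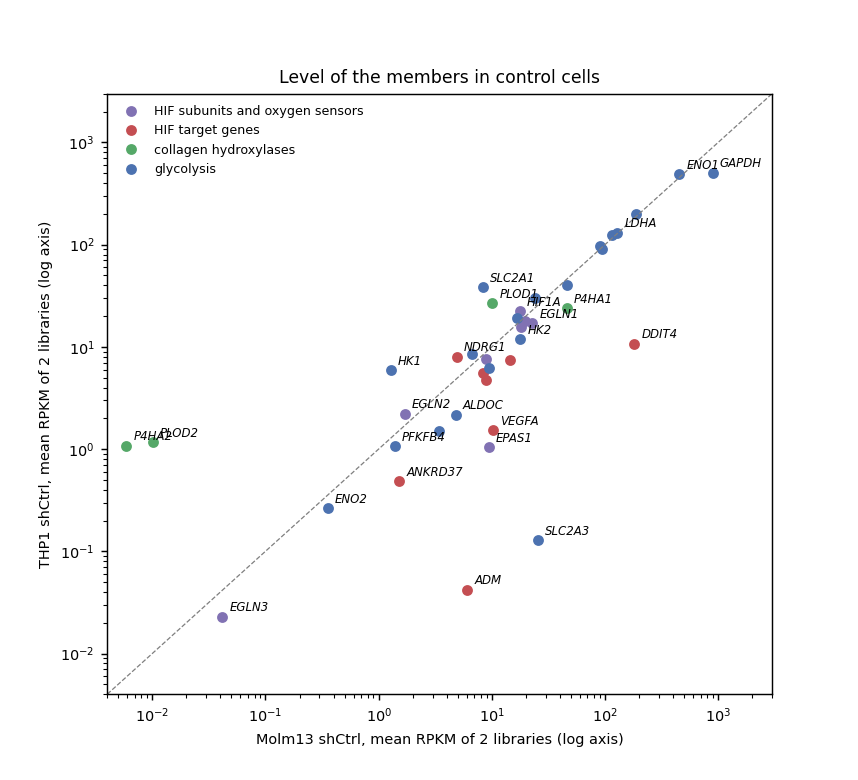
Mean RPKM of each member in the 2 shCtrl libraries of Molm13 (horizontal, log axis) and THP1 (vertical, log axis), colored by group, with the dashed line marking equal levels. P4HA2 and PLOD2 lie far above the line, SLC2A3, ADM and DDIT4 far below it, and the abundant glycolytic enzymes such as ENO1 and LDHA lie on it.

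With PRMT9 knockdown, most members were higher in Molm13, whereas in THP1 they were divided. In Molm13, 38 members had enough counts to be fitted, all except P4HA2 and PLOD2, and 36 of them had a positive log2 fold change, with a median of 0.66 against 0.00 for all genes tested. The 2 members with a negative value were HIF1A and PFKL. By the rule for differentially expressed genes (DEGs), which combines FDR below 0.05 with a change of more than 1.5-fold either way and some library with more than 1 RPKM, 20 were higher and 0 lower, beside 11.4% and 11.3% of all 16446 genes. This Molm13 count follows from the choice of the genes and is no test of them.

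In THP1, 38 members were tested, all except EGLN3 and ADM, and 13 rose and 14 fell at FDR below 0.05, beside 19.0% and 18.6% of the 16294 genes tested. The remaining 11 did not pass. The median log2 fold change of the 38 genes was 0.03, against 0.00 for all genes. By the DEG rule, 4 rose (VEGFA, NDRG1, PFKFB4 and PKM) and 3 fell (EPAS1, BNIP3 and PLOD2), beside 3.82% and 2.39% of all genes. EPAS1 (1.01 and 1.08 RPKM) and PLOD2 (1.13 and 1.21 RPKM) passed the RPKM minimum only in the shCtrl libraries, where they were higher. Of the 27 calls at FDR below 0.05, 20 held under each alternative, and those of DDIT4, KDM3A, P4HA1, SLC2A3, PFKFB3, TPI1 and GAPDH were lost under some, including without single libraries.

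The shPRMT9 libraries lay above both shCtrl libraries for 33 of 38 members in Molm13 and below them for 2, and in THP1 they lay above for 16 and below for 18. Groups did not overlap for 81.8% of all genes in Molm13 and 66.3% in THP1. In the fit of all 8 libraries, the log2 fold change was lower in THP1 than in Molm13 for 33 of 40 members and higher for 7, with a median difference of -0.71 against 0.03 for all genes. That difference contains the Molm13 contrast and is only a description. P4HA2 and PLOD2 in Molm13 and EGLN3 and ADM in THP1 had a few counts per library. These genes entered the fit of all 8 libraries through the groups where they are higher, so their differences are imprecise. Under the alternatives, the difference of P4HA2 ran from -1.55 to 0.16 and that of PLOD2 from -2.19 to 2.71.

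**Figure D2:**
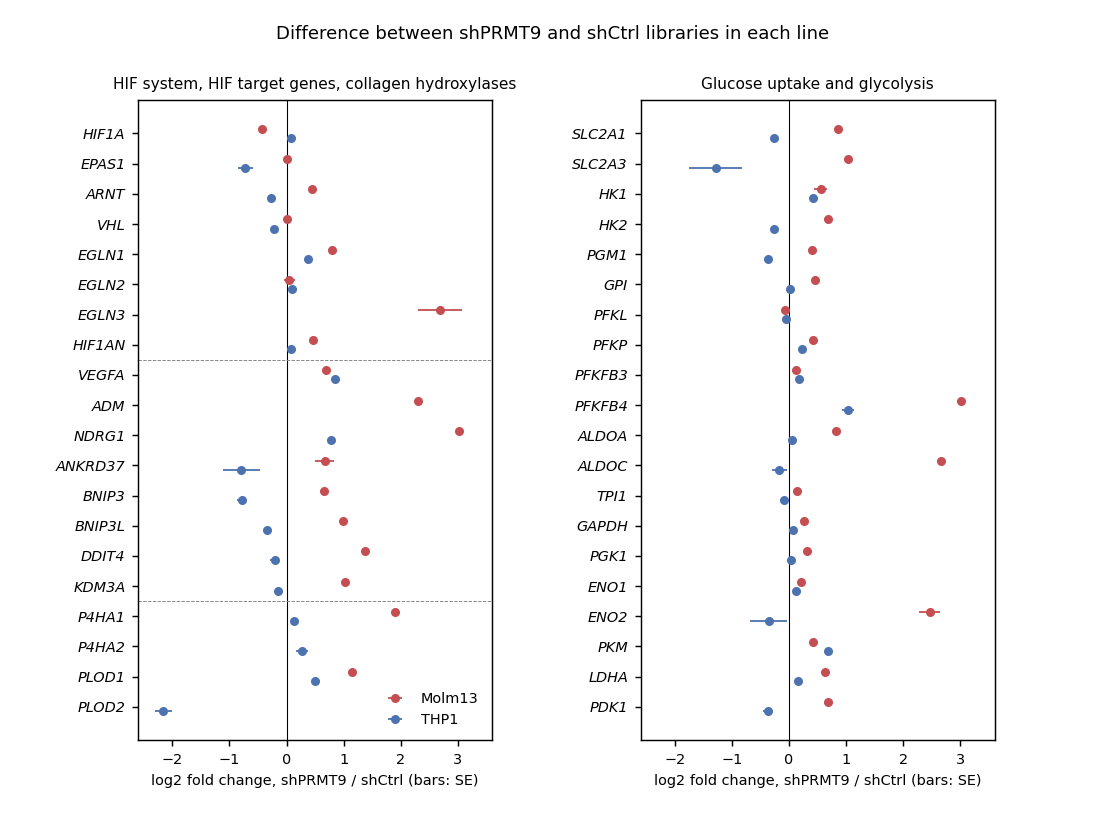
Log2 fold change of shPRMT9 against shCtrl (horizontal) for each member in Molm13 (red) and THP1 (blue), with bars for the standard error and dashed lines between the groups, and with no point where a gene had too few counts. The Molm13 points lie mostly right of 0, up to 3.03 for NDRG1, and the THP1 points lie on both sides, from -2.16 for PLOD2 to 1.03 for PFKFB4.

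Among the HIF subunits and oxygen sensors, EGLN1 rose in THP1, while EPAS1, ARNT and VHL fell. EGLN1, the main HIF prolyl hydroxylase, was at 125 and 123 CPM in shCtrl and 164 and 157 CPM in shPRMT9 libraries of THP1. The log2 fold change was 0.38 (SE 0.04, FDR = 4.29e-09), and in Molm13 it was 0.79 (SE 0.03). EPAS1, the alternative alpha subunit, was at 7.40 and 7.88 CPM in THP1 shCtrl and 4.77 and 4.41 CPM in shPRMT9 libraries. It thus fell 1.65-fold in THP1 (log2 fold change -0.72, SE 0.13, FDR = 4.73e-05), without overlap of the groups, while in Molm13 the groups overlapped between 67.6 and 69.1 CPM. ARNT fell by 0.28 on the log2 scale in THP1 (SE 0.04, FDR = 4.79e-06) and had a value of 0.45 (SE 0.03) in Molm13. VHL fell by 0.22 in THP1 (SE 0.05, FDR = 3.15e-04), and its groups overlapped in Molm13.

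HIF1A was the subunit that was lower in Molm13. It was at 90.3 and 91.3 CPM in shCtrl and at 64.1 and 69.7 CPM in shPRMT9 libraries there, a log2 fold change of -0.42 (SE 0.04). In THP1 its levels of 112 and 117 CPM in shCtrl and 122 and 116 CPM in shPRMT9 libraries overlapped, and the log2 fold change of 0.07 (SE 0.04) did not pass (FDR = 0.163). An antisense gene within the HIF1A locus, HIF1A-AS2, had 13 and 14 counts in Molm13 shCtrl and 80 and 81 counts in shPRMT9 libraries, and at most 1 count in THP1. The strand setting of the counting is not given in the sources used here, so reads of the pair cannot be told apart. EGLN3, a prolyl hydroxylase that is itself a HIF target, had 4 and 8 counts in Molm13 shCtrl and 41 and 38 in shPRMT9 libraries (log2 fold change 2.70, SE 0.39), and 3 to 5 counts in THP1, too few to test. It overlaps SPTSSA on the same strand, which had 757 and 696 counts in Molm13 shCtrl and 436 and 528 in shPRMT9 libraries. HIF1AN and EGLN2 did not pass in THP1 (log2 fold changes 0.07 and 0.10).

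Of the 8 HIF target genes, 7 could be tested in THP1. At FDR below 0.05, 2 rose and 4 fell there, beside 19.0% and 18.6% of all genes, and 1 did not pass. In Molm13 all 8 were higher, with log2 fold changes from 0.66 to 3.03 and a median of 1.01, compared with a median of -0.21 in THP1. The genes that rose in THP1 were VEGFA and NDRG1. VEGFA was at 22.6 and 21.6 CPM in THP1 shCtrl and 37.6 and 40.96 CPM in shPRMT9 libraries, a rise of 1.79-fold (log2 fold change 0.84, SE 0.07, FDR = 3.17e-11). The Molm13 value was 0.70 (SE 0.03), from a higher level of 148 and 149 CPM. NDRG1, a hypoxia and differentiation marker, was at 79.0 and 77.7 CPM in THP1 shCtrl and 135 and 132 CPM in shPRMT9 libraries (log2 fold change 0.78, SE 0.04, FDR = 4.34e-15). In Molm13 it was at 51.6 and 45.03 CPM in shCtrl and 388 and 393 CPM in shPRMT9 libraries, which was 8.15-fold higher and the largest value among the members.

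The mitophagy receptors fell together in THP1. BNIP3 was at 31.6 and 28.0 CPM in shCtrl and 17.6 and 16.6 CPM in shPRMT9 libraries of THP1. It fell 1.72-fold (log2 fold change -0.78, SE 0.08, FDR = 2.73e-09), while in Molm13 it was 1.58-fold higher, from 44.6 and 44.2 to 67.97 and 70.5 CPM. Its relative BNIP3L fell by 0.34 on the log2 scale in THP1 (SE 0.07, FDR = 2.49e-04) and was 1.99-fold higher in Molm13. The groups of both genes were apart in both lines, in opposite directions. The BNIP3 promoter, with 6 matches to the motif, is shown above, and whether HIF bound there was not measured.

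DDIT4 and KDM3A were lower in THP1 by small amounts. DDIT4 was at 23.4 and 20.9 CPM in THP1 shCtrl and 19.7 and 18.3 CPM in shPRMT9 libraries (log2 fold change -0.21, SE 0.08, FDR = 0.0411). The call was lost without THP1 shCtrl replicate 1 (log2 fold change -0.12, FDR = 0.403), without shPRMT9 replicate 2 (FDR = 0.204) and in DESeq2 (FDR = 0.199). In Molm13 it was at 370 and 373 CPM in shCtrl and 953 and 954 CPM in shPRMT9 libraries, 2.59-fold higher. The histone demethylase KDM3A had a log2 fold change of -0.15 in THP1 (SE 0.05, FDR = 0.0142), lost without THP1 shCtrl replicate 1, shCtrl replicate 2 or shPRMT9 replicate 2 (highest FDR 0.0923), and a value of 1.02 in Molm13. ANKRD37 had 30 and 37 counts in THP1 shCtrl and 18 and 18 in shPRMT9 libraries and did not pass (log2 fold change -0.80, SE 0.32, FDR = 0.0548). It overlaps UFSP2 on the other strand, which had 343 to 468 counts in each library. ADM was 4.96-fold higher in Molm13, from 17.7 and 15.2 to 82.3 and 79.6 CPM, and had 2 to 4 counts in THP1.

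**Figure D3:**
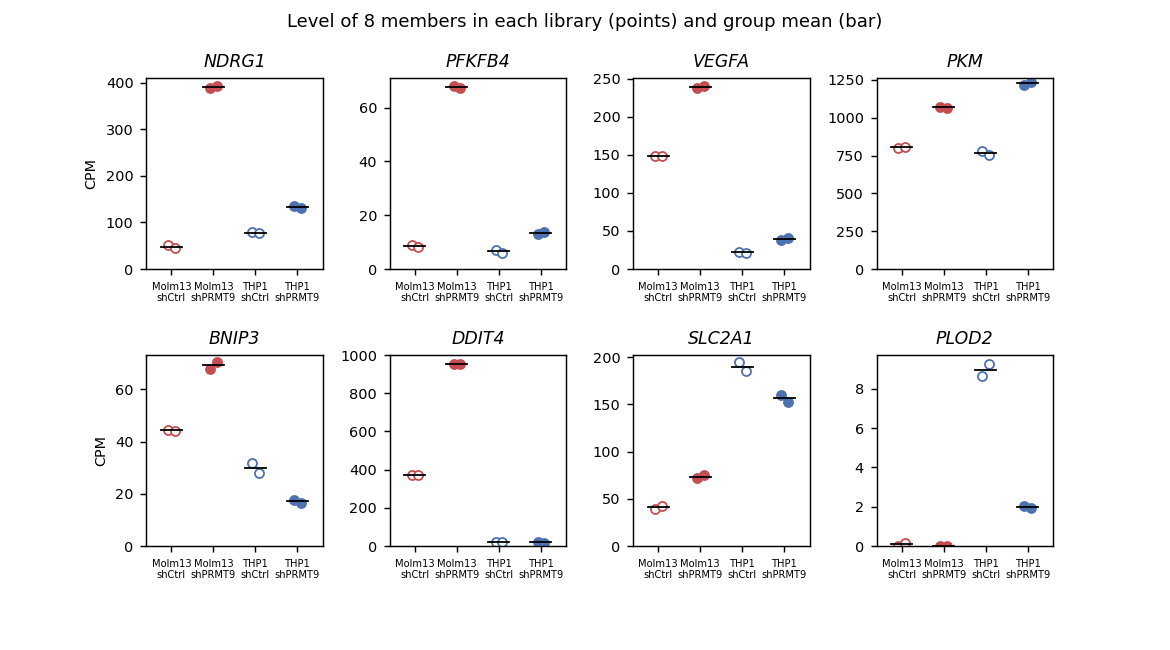
CPM of 8 members in each library, with open points for shCtrl, filled points for shPRMT9 and a bar for the mean of 2 libraries, on a separate axis from 0 for each gene. NDRG1, PFKFB4, VEGFA and PKM are higher in the shPRMT9 libraries of both lines, whereas BNIP3, SLC2A1 and DDIT4 are higher in Molm13 and lower in THP1, and PLOD2 is lower in THP1 and near 0 in Molm13.

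The collagen hydroxylases, which modify proline and lysine in procollagen with oxygen as a substrate, went different ways in THP1, where PLOD1 and P4HA1 rose, PLOD2 fell and P4HA2 did not pass. PLOD2 was at 8.65 and 9.25 CPM in THP1 shCtrl and 2.05 and 1.93 CPM in shPRMT9 libraries. It fell 4.46-fold (log2 fold change -2.16, SE 0.15, FDR = 2.5e-12), the largest fall among the members in THP1. PLOD1 rose 1.41-fold in THP1, from 146 and 138 to 194 and 204 CPM (log2 fold change 0.50, SE 0.04, FDR = 2.04e-11), and was 2.21-fold higher in Molm13. PLOD2 therefore went from 3.97% and 4.45% of the summed RPKM of PLOD1 and PLOD2 in THP1 shCtrl to 0.732% and 0.653% in shPRMT9 libraries.

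P4HA1, the catalytic subunit of collagen prolyl hydroxylase, was at 141 and 143 CPM in Molm13 shCtrl and 520 and 525 CPM in shPRMT9 libraries, 3.72-fold higher. In THP1 it was at 75.5 and 72.2 CPM in shCtrl and 80.6 and 79.0 CPM in shPRMT9 libraries (log2 fold change 0.12, SE 0.05, FDR = 0.0328). This call was lost without THP1 shCtrl replicate 2 (log2 fold change 0.08, FDR = 0.357), without shPRMT9 replicate 1 (FDR = 0.113) and in DESeq2 (FDR = 0.141). P4HA2 missed the threshold in THP1 (log2 fold change 0.27, SE 0.11, FDR = 0.0509) and passed without shCtrl replicate 1 (0.41, FDR = 0.00744) or shPRMT9 replicate 2 (0.37, FDR = 0.0116).

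For the 20 genes of glucose uptake and glycolysis, the median log2 fold change in THP1 was 0.03. At FDR below 0.05, 8 of them rose and 6 fell there, beside 19.0% and 18.6% of all genes, and 6 did not pass. In Molm13, 19 were higher and PFKL was lower, with a median of 0.50. Their counts together made up 0.916% and 0.915% of all counts in Molm13 shCtrl and 1.24% and 1.23% in shPRMT9 libraries, and 0.842% and 0.825% in THP1 shCtrl and 0.900% and 0.905% in shPRMT9 libraries. The total was thus higher with knockdown in each line, and in THP1 the single genes went both ways. PKM carried most of the rise in THP1, where the other 19 genes made up 0.764% and 0.749% of all counts in shCtrl and 0.778% and 0.782% in shPRMT9 libraries.

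At the entry of glucose, SLC2A1 was at 195 and 185 CPM in THP1 shCtrl and 160 and 153 CPM in shPRMT9 libraries. It fell 1.20-fold in THP1 (log2 fold change -0.27, SE 0.04, FDR = 1.86e-06) and was 1.80-fold higher in Molm13. SLC2A3, at 24 and 18 counts in THP1 shCtrl and 5 and 11 in shPRMT9 libraries, had a log2 fold change of -1.29 (SE 0.46, FDR = 0.0281), but the call was lost without shCtrl replicate 1 (-1.01, FDR = 0.291) or shPRMT9 replicate 1 (-0.82, FDR = 0.274). In Molm13, where it is the main transporter of the pair, it was 2.04-fold higher.

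The hexokinases, which trap glucose in the cell by phosphorylation, changed in opposite directions in THP1. HK1 was at 35.3 and 36.8 CPM in THP1 shCtrl and 48.0 and 47.5 CPM in shPRMT9 libraries and rose 1.34-fold (log2 fold change 0.42, SE 0.06, FDR = 6.55e-07). HK2 was at 71.6 and 73.0 CPM in THP1 shCtrl and 59.5 and 59.5 CPM in shPRMT9 libraries and fell 1.21-fold (log2 fold change -0.27, SE 0.05, FDR = 3.35e-05). HK1 accordingly went from 33.0% and 33.5% of the summed RPKM of both to 44.6% and 44.4%, whereas in Molm13, with values of 0.55 for HK1 and 0.69 for HK2, its share stayed between 5.82% and 7.11%. PGM1, which links glycogen to glycolysis, fell 1.29-fold in THP1 (FDR = 3.47e-05) and had a log2 fold change of 0.41 in Molm13. It overlaps ITGB3BP on the other strand, which had 500 to 693 counts in each library. The isomerase GPI did not pass in THP1 (log2 fold change 0.02).

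At the phosphofructokinase step, PFKFB4 was higher with knockdown in both lines. It regulates the level of the sugar bisphosphate that activates phosphofructokinase. PFKFB4 was at 7.02 and 6.06 CPM in THP1 shCtrl and 12.9 and 13.6 CPM in shPRMT9 libraries. It rose 2.05-fold (log2 fold change 1.03, SE 0.11, FDR = 7.87e-09), the largest rise among the members in THP1. In Molm13 it was at 8.89 and 8.06 CPM in shCtrl and 67.9 and 67.3 CPM in shPRMT9 libraries, 8.04-fold higher. Its relative PFKFB3 had log2 fold changes of 0.18 in THP1 (SE 0.06, FDR = 0.0198) and 0.11 in Molm13, and the THP1 call was lost without shCtrl replicate 1, shCtrl replicate 2 or shPRMT9 replicate 2 (highest FDR 0.132). PFKFB4 thus made up 15.7% and 13.8% of the summed RPKM of the pair in THP1 shCtrl and 23.8% and 23.9% in shPRMT9 libraries, and 13.6% and 12.03% against 52.9% and 51.7% in Molm13. Of the phosphofructokinase subunits, PFKP rose in THP1 (log2 fold change 0.22, SE 0.04, FDR = 5.31e-05) with a value of 0.42 in Molm13, whereas PFKL did not pass in THP1 (-0.06) and had -0.07 in Molm13.

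The enzymes from aldolase to enolase differed little in THP1. ENO1 rose 1.08-fold (FDR = 8.03e-04), while ALDOA, ALDOC, PGK1 and ENO2 did not pass, with log2 fold changes of 0.05, -0.17, 0.04 and -0.35. GAPDH (log2 fold change 0.08, FDR = 0.0289) and TPI1 (-0.09, FDR = 0.0425) passed, but GAPDH was lost without shCtrl replicate 2, shPRMT9 replicate 1 or shPRMT9 replicate 2 (highest FDR 0.305), and TPI1 without shCtrl replicate 1, shPRMT9 replicate 1 or shPRMT9 replicate 2 (highest FDR 0.329). In Molm13, the less abundant ALDOC and ENO2 had larger fold changes than ALDOA and ENO1. ALDOC was at 13.2 and 14.8 CPM in Molm13 shCtrl and 87.3 and 87.8 CPM in shPRMT9 libraries (6.31-fold), and ENO2 at 1.71 and 1.34 against 7.85 and 8.90 CPM (5.52-fold), compared with 1.76-fold for ALDOA and 1.15-fold for ENO1. ALDOC went from 2.40% and 2.61% to 8.45% and 8.40% of the summed aldolase RPKM in Molm13 and stayed between 0.877% and 1.14% in THP1. The gene RP11-192H23.4 overlaps ALDOC on the same strand and had 14 to 20 counts per library in Molm13 and 185 to 208 in THP1. The level of ALDOC in THP1 is therefore uncertain. ENO2 shares bases on the same strand with LRRC23, which had 26 and 30 counts in Molm13 shCtrl and 54 and 72 in shPRMT9 libraries.

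At the end of the pathway, PKM, which makes pyruvate, was higher with knockdown in both lines. It was at 782 and 755 CPM in THP1 shCtrl and 1217 and 1238 CPM in shPRMT9 libraries and rose 1.61-fold (log2 fold change 0.69, SE 0.03, FDR = 3.14e-17), compared with 0.42 (SE 0.02) in Molm13. The counts do not separate its splice forms. LDHA, which makes lactate, rose 1.12-fold in THP1 (FDR = 2.41e-05) and was 1.56-fold higher in Molm13. PDK1, the kinase that restrains entry of pyruvate into mitochondria, fell 1.29-fold in THP1, from 23.4 and 21.2 to 15.3 and 18.9 CPM (log2 fold change -0.37, SE 0.09, FDR = 0.00117), and was 1.60-fold higher in Molm13.

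**Figure D4:**
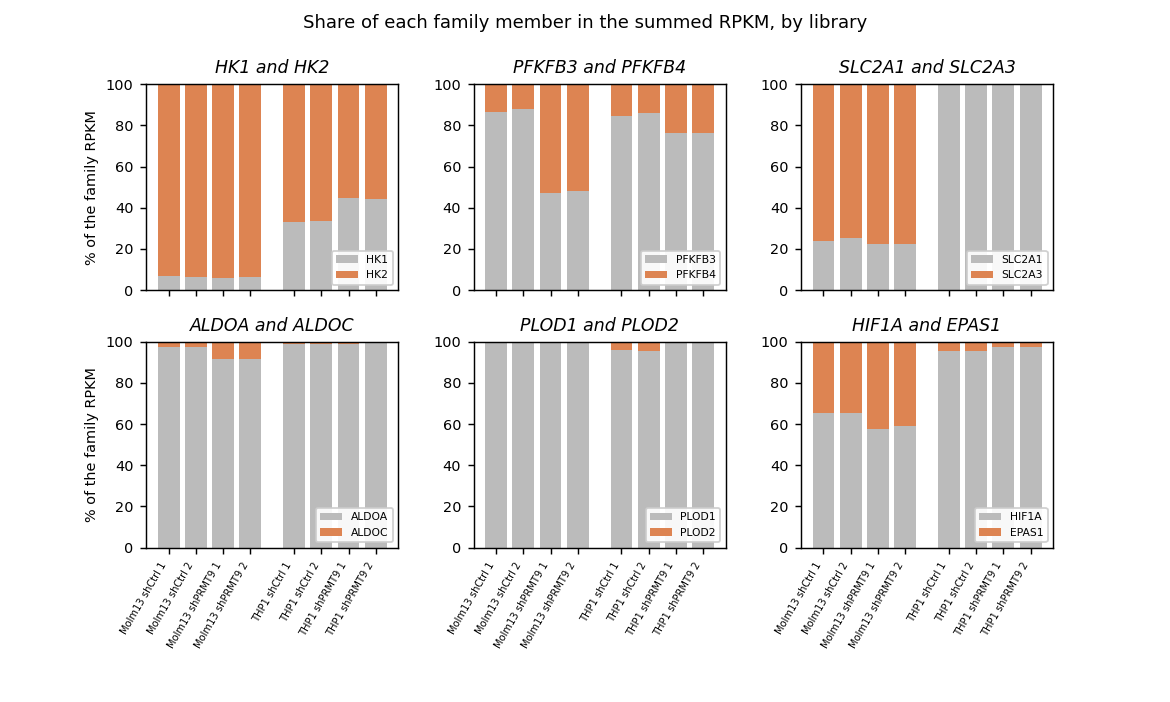
Share of each of 2 related genes in their summed RPKM (percent, from 0 to 100) in each of the 8 libraries. PFKFB4 is the larger share with knockdown in Molm13 only, HK1 gains in THP1, PLOD2 is seen in THP1 shCtrl, and SLC2A3 dominates in Molm13 and is under 1% in THP1.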

How the data were processed

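Libraries of Molm13 and THP1 were assigned to shCtrl or shPRMT9 by their labels, 2 to a group. RNA was extracted with Trizol and polyA libraries were made with a Kapa mRNA HyperPrep kit and sequenced on an Illumina HiSeq system. The authors deposited raw counts, whole numbers of reads for each gene, with 1 table per line, and the submitters' processing notes name TopHat2 2.0.8, HTSeq 0.11.2, edgeR 3.30.3 and hg38. The annotation and the strand setting are not given in the sources used here. The deposited Molm13 table also holds exon lengths, which were used for RPKM in both lines.

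Counts were analysed in R 4.3.3 with edgeR 4.0.16 (TMM, filterByExpr, quasi-likelihood test, Benjamini-Hochberg adjustment over all genes tested), in each line alone and, for the control levels and the difference between the lines, in 1 fit of all 8 libraries. Standard errors were taken from the fold change and the F value of its test. DEGs needed FDR below 0.05, a change of more than 1.5-fold in either direction and more than 1 RPKM in some library, as in the study's methods. The tests were tried on simulated data. Replicate libraries differed by more than sampling noise (chi-square per gene 1.35 to 2.17). Library totals of 18720950 to 27356870 counts leave genes with a few counts per library imprecise. The members, the further gene lists and their tests were chosen with earlier results of these data known. All 40 members are named, and of the further lists the 3 largest rises and falls past the FDR in each line, of which 1 gene is not reported here. HIF1A-AS2, UFSP2, ITGB3BP, LRRC23 and SLC2A14 are named because their reads can be confused with members. The replicate numbers were not used as pairs in the main fits. Over all genes tested, the correlation of same-numbered deviations was -0.08 in Molm13 and -0.01 in THP1. With 2 libraries in a group, this cannot exclude a pairing. The alternatives were other normalizations, no filter, DESeq2 1.42.0, the replicate number as a block, a joint fit, other fold limits, no RPKM minimum and leaving out each library.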

Additional observations from a re-analysis of the deposited data

Results flagged for a closer look

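For 14 members, both shPRMT9 libraries lay above both shCtrl libraries in Molm13 and below them in THP1. Groups did not overlap for 81.8% of all genes in Molm13 and 66.3% in THP1. The share of all genes above in Molm13 and below in THP1 was not counted, so the 14 are only a description. The Molm13 contrast was in view when the genes were chosen, so the difference of the fold change between the lines, from the fit of all 8 libraries, is given as a value and no test of it is read. On the log2 scale (THP1 minus Molm13), it was -0.71 for the HIF partner ARNT. Among HIF targets it was -1.45 for ANKRD37, -1.43 for BNIP3, -1.32 for BNIP3L, -1.57 for DDIT4 and -1.16 for KDM3A. In glucose uptake it was -1.11 for SLC2A1 and -2.30 for SLC2A3, the latter from at most 24 counts a library in THP1. Among the enzymes it was -0.94 for HK2, -0.76 for PGM1, -2.82 for ALDOC, -0.22 for TPI1, -2.80 for ENO2 and -1.04 for PDK1. In THP1 alone, ANKRD37, ALDOC and ENO2 did not pass the test, and DDIT4, KDM3A, SLC2A3 and TPI1 lost their calls without single libraries.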

How the results depend on the processing

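No result turned its direction past the test under the alternatives run. The median over HIF targets in Molm13 was 0.99 without the filter and 1.00 in the joint fit, and 0.98 to 1.03 with single libraries left out. In Molm13, where counts of members only describe the genes chosen, 2 members were lower at FDR below 0.05, against 1 without the filter, in DESeq2 and in the joint fit, and 1 to 2 with a library left out. Leaving out a library gave Molm13 medians of 0.64 to 0.67 for all members, 0.25 to 0.29 for subunits and sensors and 0.48 to 0.54 for glycolysis. The DEG rule gave 32 higher and 2 lower members in Molm13 without the fold limit and 10 higher above 2-fold. In THP1 it gave 13 higher and 13 lower without the limit and 1 and 1 above 2-fold. The shares of all genes past the rule with these limits were not counted, so these counts only describe the members. In THP1, the median of subunits and sensors was 0.0446 with library size alone and 0.0211 to 0.0457 with a library left out, and that of targets -0.30 to -0.15. The median difference between the lines was -0.76 with library size alone and -0.77 to -0.70 with a library left out. With the replicate number as a block, TPI1 (FDR = 0.0802) and GAPDH (FDR = 0.0683) lost and P4HA2 (FDR = 0.0351) gained the call in THP1, PKM lost the control difference (FDR = 0.0746), and counts of calls moved by 1 at most. The cause of these shifts was not tested. Each group holds 2 libraries, so that outliers cannot be found, and members with a few counts per library (EGLN3, ADM and SLC2A3 in THP1, PLOD2 and P4HA2 in Molm13) are limited by depth.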

Other observations

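Further genes of the same pathways were counted from lists made with earlier results known. For comparison, 19.0% of all genes tested rose and 18.6% fell in THP1 at FDR below 0.05, and 33.4% were higher and 33.5% lower in Molm13. Of 28 further hypoxia-induced genes, 25 were tested in THP1, and 5 rose and 10 fell at FDR below 0.05 by edgeR's quasi-likelihood test, with a median log2 fold change of -0.01. Among the largest rises there were HMOX1, the heme oxygenase, which went from 2.38 and 2.65 to 27.7 and 28.1 CPM (log2 fold change 3.48, SE 0.11), and the repressor BHLHE40 (0.73, SE 0.09). The largest falls were CCNG2 (from 12.6 and 10.1 to 5.92 and 5.26 CPM), the MYC antagonist MXI1 (-0.68, SE 0.06) and ZNF395 (-0.65, SE 0.09). In Molm13, 26 of the list were fitted, and 22 had a positive and 4 a negative value, with a median of 0.75. At FDR below 0.05, 19 were higher and 2 lower. Among the extremes there were LOX (5.36, from 0 and 1 to 23 and 28 counts) and HMOX1 (1.84), and STC2 (-1.01) and TFRC (-0.79). CCNG2, MXI1 and ZNF395 thus had values of 1.34, 1.31 and 1.47 in Molm13 and fell in THP1, while HMOX1 and BHLHE40 were higher in both lines.

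Of 12 further HIF regulators, 11 were tested in THP1, and CUL2 (0.26) and CREBBP (0.12) rose while CITED2 (-0.14) and EP300 (-0.10) fell, which in each direction is close to the share of all genes. In Molm13, 3 of 10 were higher at FDR below 0.05 (P4HTM 0.45, CITED2 0.30, CREBBP 0.09), close to the 33.4% of all genes. At the same limit 5 were lower, led by the VHL ligase subunits RBX1 (-0.49), CUL2 (-0.47) and ELOB (-0.45). Of 9 further collagen modification genes, 8 were tested in THP1, and 5 rose and 0 fell, led by COLGALT2 (0.80), P3H1 (0.37) and PLOD3 (0.29). In Molm13, P3H2 (2.55) and P4HB (0.06) were higher and PLOD3 (-0.18) lower at FDR below 0.05, of 6 fitted. Of 23 further glucose and lactate enzymes, 18 were tested in THP1, and 4 rose and 6 fell, the former close to the share of all genes. The largest were PDK4 (1.61, from 8 and 11 to 27 and 28 counts), HK3 (0.87) and TIGAR (0.34), and MPC2 (-0.36), PDK2 (-0.33) and FBP1 (-0.25). In Molm13, 4 of 16 were higher at FDR below 0.05, against 33.4% of all genes, led by FBP1 (2.05), HK3 (1.74) and PDK2 (0.28). At the same limit 8 were lower, led by BPGM (-1.06), ENO3 (-1.01) and TIGAR (-0.84).

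PGAM1, the glycolytic mutase, which has many processed pseudogenes and was chosen after its values were seen, had 909 and 899 counts in Molm13 shCtrl and 12836 and 13821 counts in THP1 shCtrl libraries. It did not pass the test for knockdown in THP1 (log2 fold change -0.04, FDR = 0.283).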
